A study of Mus musculus with 12 samples.

Results

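The collagen genes of the mouse colon were followed in 12 RNA-seq libraries. They were taken as the protein-coding genes whose symbol is Col, digits, a and digits, and 44 of the 54532 listed genes met that rule. By the usual types of collagen they were 11 fibrillar chains, 6 basement membrane chains of type IV, 3 network-forming chains of types VIII and X, and 24 others. Of the 44, 38 had enough counts to be tested. Col4a3bp, a ceramide carrier with a similar symbol, is not a collagen and was not taken.

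The colons of male C57BL/6 mice were sequenced as total RNA, with 3 animals in each of 4 groups, so the replicates were separate animals. The Con group drank water, the DSS group drank 3% (w/v) dextran sulfate sodium (DSS), which injures the colon epithelium, for 5 days, and ursolic acid (UA), a plant triterpenoid, was given by gavage at 200 mg/kg once a day. UA began 24 hours ahead of DSS in the UA+DSS mice and 3 days after its start in the DSS+UA mice. It lasted 7 and 4 days by the methods of the study, and 9 and 5 days by its discussion. By the methods the Con and the DSS mice received the vehicle by gavage, while the Con samples are labelled as untreated. The mice were 6 weeks old on arrival with 1 week of adaptation. No group received UA without DSS, so UA was compared only in mice that also drank DSS, and the segment of the colon that was sampled is not stated.

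Collagens are the main structural proteins of connective tissue. Each protein is a trimer of chains with long runs of glycine-led triplets, wound into a triple helix. Fibrillar chains of types I, III and V build the fibrils of the lamina propria and submucosa, chains of type IV build the sheet under epithelia and around vessels and muscle cells, and the other types link, decorate or anchor these structures. In the gut, fibroblasts, smooth muscle cells, pericytes and endothelial cells are known sources of them.

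Total counts were 15566216 to 19498383 per library. Levels are CPM, the counts of a gene relative to the total of its library after scaling by TMM factors of 0.871 to 1.09. Changes are log2 fold changes ± SE from the quasi-likelihood test of edgeR, fitted once to all 12 libraries, with Benjamini-Hochberg adjustment over the 17658 tested genes, and a gene is called raised or lowered where the adjusted p is under 0.05. Libraries carry the name of the group with the number of the replicate. DSS 2 had the highest summed level of 5 neutrophil markers (16087 CPM, against 550.1 and 728 in the other DSS libraries). DSS 3 had the highest summed level of 5 pancreas acinar markers (11194 CPM, against 30.3 and 86.4). A score of position along the colon, built from Hox genes and higher toward the rectum, was 5.52, -3.02 and -1.83 in Con, 3.10, 1.35 and 0.37 in DSS, -4.88, -5.70 and -4.16 in UA+DSS and 4.12, 4.48 and 5.06 in DSS+UA. The UA+DSS and DSS+UA libraries thus lay at opposite ends of it, and values with the score as a covariate are given beside most results. The scores of UA+DSS overlapped those of no other group, and those of DSS and DSS+UA did not overlap either. All 6 epithelial and all 6 smooth muscle markers were counted in each group. The sum of the epithelial markers was 7089.9 to 11501 CPM in Con and lower in all DSS libraries, at 4464 to 7020.0 CPM, and it was 9099 to 10340.2 CPM in UA+DSS, with 8364 to 12939.8 CPM in DSS+UA.

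The 44 genes together took 0.147% to 0.254% of all counts in the Con libraries and 0.526% to 1.06% in the DSS libraries. Their summed level was 2055 ± 417 CPM (mean ± SD, n = 3) in Con, 7195 ± 2786 CPM in DSS, 2165 ± 968 CPM in UA+DSS, with 2279 ± 667 CPM in DSS+UA. The lowest DSS library, at 4857 CPM, was above the highest library of the other groups, at 2988 CPM. Col1a1, Col1a2 and Col3a1 alone made up 51.9% ± 9.68 of the sum in Con and 49.6% ± 4.18 in DSS. The fibrillar chains as a whole took 58.4% and 57.5%. The type IV chains took 13.7% ± 3.35 in Con and 19.0% ± 2.56 in DSS, and the multiplexins Col15a1 and Col18a1 took 3.41% ± 0.392 and 8.31% ± 1.78. These shares are of counts, in which longer genes weigh more.

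**Figure D1:**
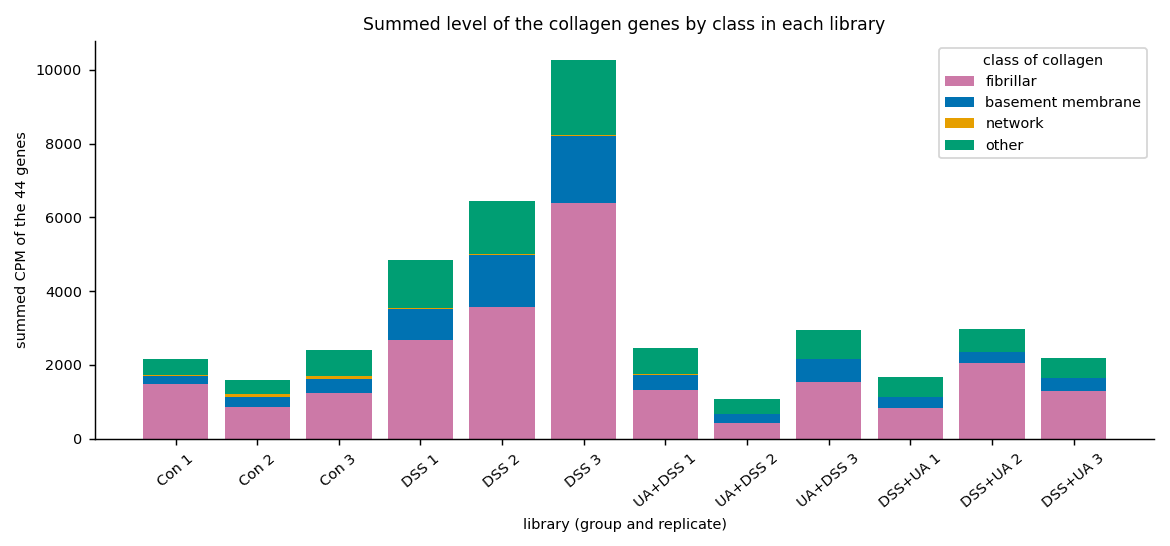
Summed CPM of the 44 collagen genes in each of the 12 libraries (bars, named by group and replicate), divided by class of collagen. The 3 DSS bars stand at 4857, 6451 and 10278 CPM, and the other 9 lie between 1086 and 2988 CPM.

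Per kilobase of exon, Col3a1 stood first in every group, with 72.8 CPM per kilobase in Con and 241 in DSS. The length is the union of the exons of all annotated transcripts of a gene, so it can exceed that of the transcripts in use. For Col1a2 it is 12426 bases, with 4116 coding bases, and for Col1a1 6563 bases, with 4359 coding bases. Places of genes in this order thus depend on the annotation. In Con it was followed by Col6a1 (28.6), Col4a1 (20.8), Col1a2 (19.1) and Col1a1 (17.3). In DSS the order after Col3a1 was Col4a1 (115), Col1a1 (90.7), Col4a2 (71.7) and Col18a1 (67.3). Col18a1 stood at place 13 in Con and place 5 in DSS. The short-chain Col8a1 went from place 8 to place 18. These are places of group means, and neighbours in the order often lay within the spread of their libraries.

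A feature of the genes themselves separates the classes. Fibrillar genes are known for coding exons built from a 54-base unit, which spells whole glycine-led triplets. In the GRCm38 annotation (GENCODE M21), 23.4% of the 2004 coding exons of the 44 genes were exactly 54 bases long, against 0.674% of the coding exons of all protein-coding genes. A length that is a multiple of 9 was found in 61.8% of collagen exons and in 14.5% of all. For the 11 fibrillar genes these shares were 47.0% and 82.4%, and for the 6 type IV genes 4.05% and 45.9%. None of the 6 coding exons of the 3 network genes had such a length, so the classes that are compared below for their levels also differ in gene structure.

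The other 6 genes did not pass the filter on low counts. Col2a1, the cartilage collagen, had 2 counts in all, in 1 library, and Col19a1 had 1. Col10a1, a growth plate collagen, had 16 counts over the 12 libraries, Col6a6 had 19, Col26a1 26 and Col9a1 29. Col26a1 was at 0.0517 to 0.0555 CPM in Con and 0.158 to 0.433 CPM in DSS, and Col6a6 at 0 to 0.0535 and 0.150 to 0.241 CPM, without a test. The 4 cartilage markers Acan, Matn3, Comp and Cnmd were likewise too low to test, with a summed level of at most 0.818 CPM. A count of 0 in a library allows up to 3 counts by counting error, so these genes were near or under what the depth can show.

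DSS against Con asks which collagens differ in the injured colon. Of the 38 tested genes 15 were called, 14 raised and 1 lowered. Over all tested genes 26.5% were called, with 13.9% raised and 12.6% lowered. The raised genes were the chains of types I, III and V, Col4a1 and Col4a2, Col6a1, Col6a2 and Col6a3, Col15a1, Col18a1 and Col22a1. The lowered gene was Col4a3. The median log2 fold change of the 38 genes was 1.08, against -0.03 over all tested genes, and 31 of them had a positive value. For 18 genes every DSS library was above every Con library and for 1 every DSS library was under them, where this held for 21.2% and 20.1% of all tested genes. An unadjusted p under 0.05 was found for 21 of the 38 and for 40.6% of all. Since the values are shares of the RNA of bulk tissue, more cells of a type and more RNA per cell cannot be told apart.

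The largest change was that of Col18a1 (ENSMUSG00000001435, chromosome 10, 77052178 to 77166548), a basement membrane collagen whose end can be released as endostatin. It was at 33.8, 25.9 and 50.1 CPM in the Con libraries, 433, 415 and 569.5 in those of DSS, 83.9, 48.9 and 159 in those of UA+DSS and 139, 119 and 151 in those of DSS+UA. Every DSS library was above every library of the other groups, and every DSS+UA library was above every Con library. DSS against Con gave a log2 fold change of 3.69 ± 0.41, 12.9-fold, with an edgeR adjusted p of 0.00117 and at most 0.00897 over 21 alternatives. Its nearest relative Col15a1, which bridges basement membranes and fibrils, was at 30.8, 30.5 and 39.4 CPM in the Con libraries, 60.5, 112 and 109 in those of DSS, 39.1, 25.2 and 36.4 in those of UA+DSS and 25.6, 37.7 and 29.6 in those of DSS+UA. The DSS libraries of Col15a1 were again above all others, with a log2 fold change of 1.48 ± 0.26 (edgeR adjusted p 0.00392). Per kilobase, the ratio of Col18a1 to Col15a1 was 0.97 ± 0.19 in Con (SD, n = 3), 4.85 ± 1.57 in DSS, 2.55 ± 1.22 in UA+DSS and 4.12 ± 1.10 in DSS+UA. The lowest ratio in any DSS, UA+DSS or DSS+UA library, 1.76, was above the highest in Con, 1.15.

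Col18a1 has more than 1 start in RefSeq (GRCm38.p6), and the deposited counts do not separate them. Both windows are shown because this gene moved most. Each runs from 250 bases before a start to 50 bases after it, on the minus strand of chromosome 10, at chr10:77113656-77113955 and chr10:77166481-77166780. Capitals mark a match on either strand to the CCAAT box (letters CCAAT), the GC box (letters GGGCGG), the TATA box (letters TATAAA) or the AP-1 site (letters TGANTCA, where N is any base).
Col18a1, start nearer the gene end: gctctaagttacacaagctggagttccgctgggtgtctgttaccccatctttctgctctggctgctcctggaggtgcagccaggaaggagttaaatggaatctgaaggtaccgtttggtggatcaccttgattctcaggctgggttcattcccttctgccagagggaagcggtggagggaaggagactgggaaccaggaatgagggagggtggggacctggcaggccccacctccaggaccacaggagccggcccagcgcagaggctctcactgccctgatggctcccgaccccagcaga
Col18a1, start farther upstream: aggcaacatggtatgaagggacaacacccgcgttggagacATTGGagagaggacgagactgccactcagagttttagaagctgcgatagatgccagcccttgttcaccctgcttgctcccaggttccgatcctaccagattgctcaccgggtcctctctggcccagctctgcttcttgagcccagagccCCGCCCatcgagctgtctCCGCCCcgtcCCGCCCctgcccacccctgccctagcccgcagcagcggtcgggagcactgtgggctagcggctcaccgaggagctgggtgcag
The window nearer the gene end held none of these motifs, and the farther one held 1 CCAAT and 3 GGGCGG.

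Most of the fibrillar chains were raised. Of the 10 tested, these were 6, all without overlap between the DSS and Con libraries, and the other 4 had positive values that missed the threshold. The median log2 fold change of the 10 was 1.63. Col1a1 (chromosome 11, 94936224 to 94953042) and Col1a2 (chromosome 6, 4504814 to 4541544) code for the chains of type I collagen, the main fibril of scar and submucosa. Col1a1 was at 118, 69.8 and 153 CPM in the Con libraries, 309.8, 488 and 988 in those of DSS, 203, 51.5 and 276 in those of UA+DSS and 108, 253 and 168 in those of DSS+UA. Col1a2 was at 278, 181 and 252 CPM in the Con libraries, 533, 527 and 989 in those of DSS, 280.5, 96.7 and 312 in those of UA+DSS and 197, 413 and 257 in those of DSS+UA. For both, the lowest DSS library lay above every library of the other 3 groups, and UA+DSS 2 was the lowest library of all 12. The log2 fold changes of DSS against Con were 2.39 ± 0.63 for Col1a1 (edgeR adjusted p 0.0199) and 1.53 ± 0.44 for Col1a2 (edgeR adjusted p 0.0273). Type I collagen holds more alpha 1 than alpha 2 chains. The annotated exon length of Col1a2, 12426 bases, is longer than that of Col1a1, 6563 bases. The size of their ratio per kilobase depends on these lengths and cannot be set against the chains of the protein. The ratio of Col1a1 to Col1a2 per kilobase was 0.89 ± 0.22 in Con, 1.58 ± 0.42 in DSS, 1.35 ± 0.34 in UA+DSS and 1.14 ± 0.10 in DSS+UA, and the ranges of DSS (1.10 to 1.89) and Con (0.729 to 1.15) overlapped.

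Col3a1 (chromosome 1, 45311538 to 45349706) forms the thin fibrils that mix with type I. It was at 964, 532 and 649 CPM in the Con libraries, 1484, 1989.7 and 3613 in those of DSS, 666, 187 and 707 in those of UA+DSS and 402, 1158 and 678 in those of DSS+UA. The DSS libraries were above all others, with a log2 fold change of 1.72 ± 0.55 (edgeR adjusted p 0.0388). Type V chains start and limit the width of type I fibrils. Col5a1 was at 45.4, 25.8 and 80.7 CPM in the Con libraries, 144, 203 and 343 in those of DSS, 71.1, 25.8 and 102 in those of UA+DSS and 50.4, 88.4 and 78.0 in those of DSS+UA, and Col5a2 at 59.1, 47.0 and 69.6 CPM in the Con libraries, 151, 244 and 368 in those of DSS, 73.0, 28.7 and 92.5 in those of UA+DSS and 49.2, 103 and 78.0 in those of DSS+UA. Both were above all other libraries in DSS and rose by 2.18 ± 0.55 and 2.12 ± 0.45 on the log2 scale (edgeR adjusted p 0.0169 and 0.00831). Col5a3 was at 12.1, 8.26 and 15.6 CPM in the Con libraries, 16.8, 86.5 and 56.9 in those of DSS, 13.0, 9.93 and 20.7 in those of UA+DSS and 11.6, 14.0 and 17.1 in those of DSS+UA. DSS 1 was lower than UA+DSS 3 and DSS+UA 3 there, although above all Con libraries, and the log2 fold change of DSS against Con was 2.16 ± 0.51 (edgeR adjusted p 0.0128).

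Among the fibrillar chains that were not called, Col27a1 was at 5.16 to 22.4 CPM in Con and 22.5 to 29.4 CPM in DSS, without overlap but with an adjusted p of 0.0934. Col11a1 and Col11a2, chains better known from cartilage, were at 0.103 to 1.07 and 1.5 to 2.28 CPM in Con and at 0.673 to 1.21 and 1.27 to 7.36 CPM in DSS, with overlap for both. Col24a1 was under 3 CPM in every library.

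The promoter windows of Col1a2 and Col3a1 are shown because both chains were raised in DSS while their windows differ in base composition. Col1a2 is on the plus strand at chr6:4505368-4505667 and Col3a1 on the plus strand at chr1:45311288-45311587 (RefSeq, GRCm38.p6), with the same motifs in capitals.
Col1a2: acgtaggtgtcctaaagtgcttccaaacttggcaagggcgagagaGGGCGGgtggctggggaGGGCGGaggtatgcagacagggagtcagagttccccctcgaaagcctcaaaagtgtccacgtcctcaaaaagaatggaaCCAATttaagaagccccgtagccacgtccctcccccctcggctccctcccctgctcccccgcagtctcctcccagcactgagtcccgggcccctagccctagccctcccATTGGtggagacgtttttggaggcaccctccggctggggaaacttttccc
Col3a1: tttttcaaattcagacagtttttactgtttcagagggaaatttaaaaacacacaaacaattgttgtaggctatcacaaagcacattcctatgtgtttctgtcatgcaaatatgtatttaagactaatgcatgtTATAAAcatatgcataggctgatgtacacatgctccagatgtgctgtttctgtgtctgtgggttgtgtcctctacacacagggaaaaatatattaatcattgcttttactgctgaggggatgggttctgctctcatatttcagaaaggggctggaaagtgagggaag
The Col1a2 window held 2 CCAAT and 2 GGGCGG and had 61.0% G and C. The Col3a1 window held 1 TATAAA and had 37.7%, against a median of 52.7% over all promoter windows. Over the 38 windows that 35 of the 44 genes had in the RefSeq table, CCAAT was found in 13, GGGCGG in 23, TATAAA in 5 and TGANTCA in 1. Over all 32851 windows of the same length these motifs were found in 37.4%, 35.7%, 13.6% and 7.81%. Overlapping matches of different motifs did not arise in the windows printed here, and a match is a description of letters only.

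**Figure D2:**
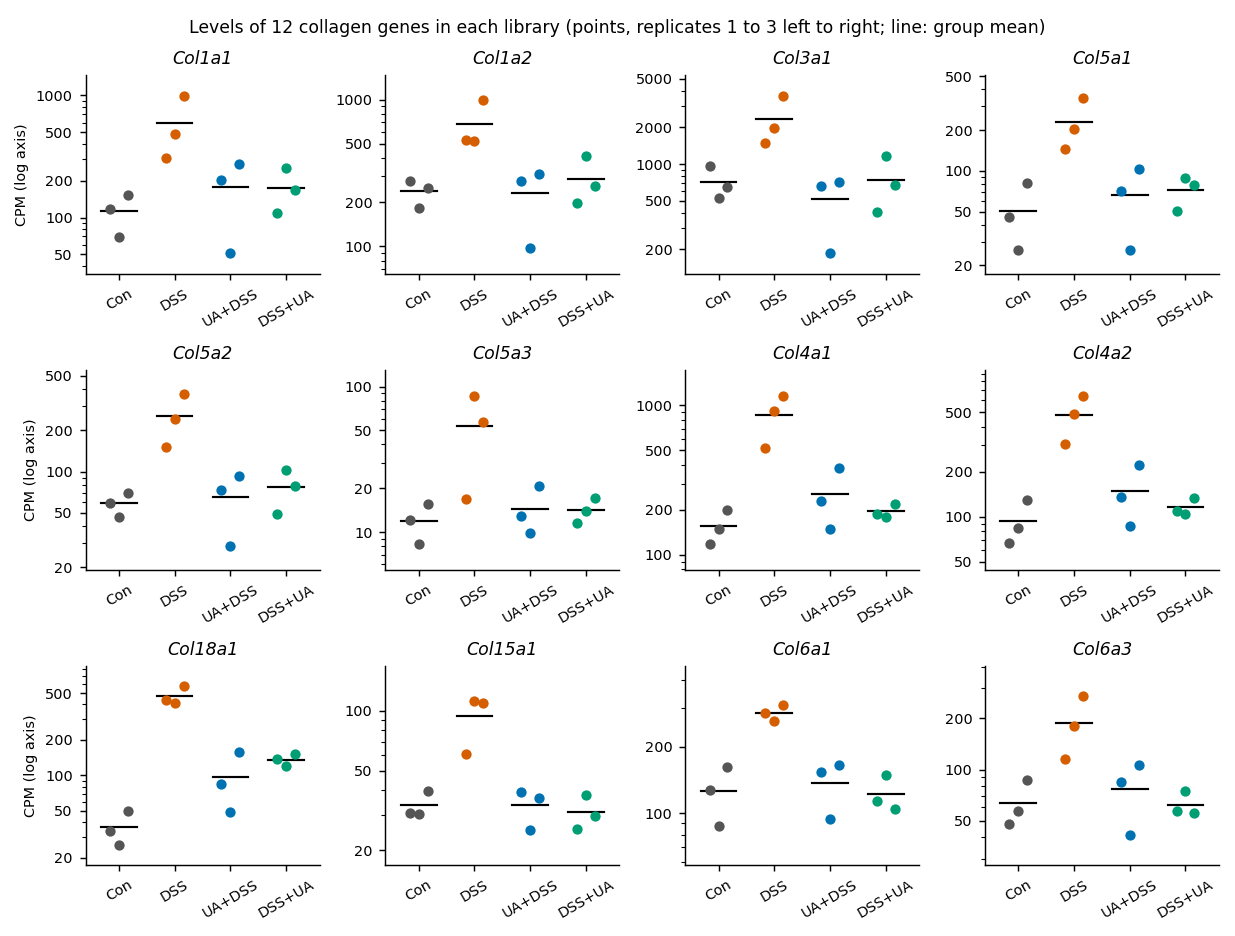
CPM on a log axis of 12 collagen genes in each library, by group, with points for the replicates 1 to 3 and a line at the group mean. The DSS points of Col18a1, at 415 to 569.5 CPM, lie above all others, and for Col5a3 DSS 1 at 16.8 CPM falls among the UA groups.

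The basement membrane chains did not move as one. Col4a1 and Col4a2, the chains of the type IV network found in nearly all basement membranes, rose, while Col4a3 fell and Col4a4, Col4a5 and Col4a6 were not called. The median log2 fold change of the 6 was -0.26. Col4a1 was at 119, 148 and 198 CPM in the Con libraries, 516, 919 and 1151 in those of DSS, 229, 149.5 and 383 in those of UA+DSS and 188, 179 and 220.1 in those of DSS+UA. Col4a2 was at 66.4, 84.5 and 129 CPM in the Con libraries, 305, 484 and 635 in those of DSS, 137, 86.3 and 221 in those of UA+DSS and 109, 104 and 134 in those of DSS+UA. For both genes the DSS libraries were above all others and the Con, UA+DSS and DSS+UA libraries overlapped. The log2 fold changes were 2.47 ± 0.38 and 2.35 ± 0.38 (edgeR adjusted p 0.00275 and 0.00317). The ratio of Col4a1 to Col4a2 per kilobase lay between 1.36 and 1.68 in all 12 libraries.

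Col4a1 and Col4a2 lie head to head on chromosome 8, with starts 21 bases apart, and 22 bases of their exons overlap on opposite strands. The use of strand in counting is not given in the sources used here, so those bases could be counted for either. Their promoter windows share 78 bases. They are shown because the pair moved together, Col4a1 on the minus strand at chr8:11312777-11313076 and Col4a2 on the plus strand at chr8:11312555-11312854 (RefSeq, GRCm38.p6), with the motifs named above in capitals.
Col4a1: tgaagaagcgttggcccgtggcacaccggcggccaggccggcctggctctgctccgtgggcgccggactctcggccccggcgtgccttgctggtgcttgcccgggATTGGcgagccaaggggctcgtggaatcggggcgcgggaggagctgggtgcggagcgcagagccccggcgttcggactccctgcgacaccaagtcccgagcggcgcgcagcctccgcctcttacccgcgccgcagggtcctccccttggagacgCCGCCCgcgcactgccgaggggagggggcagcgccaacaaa
Col4a2: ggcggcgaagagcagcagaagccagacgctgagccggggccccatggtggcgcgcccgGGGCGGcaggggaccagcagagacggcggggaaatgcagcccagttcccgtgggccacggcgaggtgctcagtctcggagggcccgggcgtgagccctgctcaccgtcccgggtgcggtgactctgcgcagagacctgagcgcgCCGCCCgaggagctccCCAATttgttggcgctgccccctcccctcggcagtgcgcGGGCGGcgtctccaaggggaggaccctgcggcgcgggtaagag
Col4a1 held 1 CCAAT and 1 GGGCGG, Col4a2 held 1 CCAAT and 3 GGGCGG, and both windows had over 73% G and C (74.0% and 73.7%). Col4a3 and Col4a4 lie head to head too, with starts 72 bases apart on chromosome 1, and so do Col4a5 and Col4a6, with starts 1309 bases apart on chromosome X.

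Col4a3, a chain of the specialised network of kidney and lung basement membranes, was low throughout, at 1.5, 1.28 and 1.5 CPM in the Con libraries, 0.289, 0.25 and 0.581 in those of DSS, 1.09, 0.437 and 0.798 in those of UA+DSS and 0.369, 0.309 and 0.222 in those of DSS+UA. All 3 Con libraries were above the other 9 libraries, and the log2 fold change of DSS against Con was -1.92 ± 0.46 (edgeR adjusted p 0.013). It rests on 157 counts over the 12 libraries, and 5.65% of its exon length overlaps an antisense transcript that had 81 counts, so its level is uncertain. Its partner Col4a4 was at 0.414, 1.16 and 1.02 CPM in the Con libraries, 0.433, 0.401 and 0.475 in those of DSS, 0.834, 0.25 and 0.372 in those of UA+DSS and 0.263, 0.0619 and 0.0554 in those of DSS+UA, with overlap between DSS and Con and a log2 fold change of -0.97 ± 0.60 (adjusted p 0.244). Col4a5 was at 22.9, 16.8 and 24.2 CPM in the Con libraries, 13.0, 9.32 and 19.4 in those of DSS, 23.7, 14.2 and 10.1 in those of UA+DSS and 5.42, 13.3 and 4.99 in those of DSS+UA, and Col4a6 stayed between 1.5 and 10.9 CPM. For DSS against Con the adjusted p of these was 0.301 and 0.909.

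The beaded filament chains of type VI sit between cells and fibrils. Col6a1 was at 128, 87.1 and 162 CPM in the Con libraries, 283, 262 and 309 in those of DSS, 154, 93.7 and 165 in those of UA+DSS and 113, 148 and 105 in those of DSS+UA. Col6a2 was at 86.7, 64.7 and 136 CPM in the Con libraries, 229.8, 246 and 285 in those of DSS, 143, 78.0 and 155 in those of UA+DSS and 109, 153 and 95.6 in those of DSS+UA, and Col6a3 at 48.3, 57.1 and 86.4 CPM in the Con libraries, 115, 179.6 and 271 in those of DSS, 84.4, 41.2 and 106 in those of UA+DSS and 57.1, 74.5 and 55.5 in those of DSS+UA. In each the lowest DSS library was above the highest library of the other groups. The log2 fold changes of DSS against Con were 1.18 ± 0.26, 1.41 ± 0.32 and 1.56 ± 0.38 (edgeR adjusted p 0.00948, 0.00977 and 0.0142). Col6a1 had the smallest change of the 14 raised genes. Col6a4, a chain of a later-found group, was also higher in all DSS than in all Con libraries, but its adjusted p was 0.0595, and Col6a5 overlapped.

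Of the 7 FACIT chains tested, which lie on the surface of fibrils, only Col22a1 was called (raised, as were 13.9% of all tested genes). It is known from tissue junctions and was at 0.155, 0.499 and 0.481 CPM in the Con libraries, 1.06, 1.90 and 2.17 in those of DSS, 0.706, 0.437 and 1.17 in those of UA+DSS and 0.527, 0.742 and 1.11 in those of DSS+UA. Its DSS libraries were above all Con libraries, with a log2 fold change of 2.16 ± 0.55 (edgeR adjusted p 0.0165) at 204 counts over the 12 libraries. Col12a1, a fibril-linking chain, was at 33.2, 41.7 and 91.1 CPM in the Con libraries, 48.9, 117 and 310.2 in those of DSS, 63.9, 22.9 and 77.4 in those of UA+DSS and 19.7, 37.8 and 36.2 in those of DSS+UA. DSS 3 stood far above DSS 1, the groups overlapped, and the log2 fold change of 1.52 ± 0.67 was not called (adjusted p 0.115). Col14a1 was at 30.9, 15.8 and 24.7 CPM in the Con libraries, 37.9, 5.16 and 33.0 in those of DSS, 27.4, 10.4 and 7.71 in those of UA+DSS and 3.74, 17.4 and 5.93 in those of DSS+UA, with DSS 2 under all Con libraries and a log2 fold change of 0.09 ± 0.75 (adjusted p 0.939). Col16a1 was at 18.2 to 41.4 CPM in Con and 47.7 to 60.3 CPM in DSS, without overlap and with an adjusted p of 0.0781.

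None of the 4 transmembrane chains was called in DSS against Con, where 26.5% of all tested genes were called. Col17a1, of the hemidesmosomes that hold epithelium to its base, was at 0.259, 0.111 and 0.374 CPM in the Con libraries, 1.11, 0.551 and 0.581 in those of DSS, 0.513, 0.562 and 0.319 in those of UA+DSS and 0.632, 0.309 and 0.610 in those of DSS+UA. Its DSS libraries were above all Con libraries, at a log2 fold change of 1.56 ± 0.54 (adjusted p 0.0534). Col7a1, the anchoring fibril, was at 2.48, 0.555 and 1.02 CPM in the Con libraries, 0.962, 8.27 and 5.97 in those of DSS, 0.834, 1.00 and 1.97 in those of UA+DSS and 1.00, 1.18 and 1.33 in those of DSS+UA. DSS 1 lay within the Con range there, and the log2 fold change of 1.90 ± 0.72 had an adjusted p of 0.0716. The network chain Col8a1, known from vessel walls, was at 8.95, 80.9 and 96.3 CPM in the Con libraries, 24.9, 7.56 and 31.7 in those of DSS, 29.1, 9.81 and 12.1 in those of UA+DSS and 3.58, 7.98 and 7.37 in those of DSS+UA. Con 1 was far under Con 2 and Con 3, and DSS and Con overlapped. A further 6 genes were not called in any comparison. Of these Col8a2 was at 0.887 to 3.90 CPM in Con and 0.451 to 2.38 CPM in DSS, the fibril-surface chains Col9a2 and Col9a3 at 0.277 to 1.14 and 0.259 to 1.18 CPM in Con and 1.10 to 2.21 and 0.264 to 0.902 CPM in DSS, and Col13a1, a transmembrane chain, at 2.22 to 4.66 and 3.85 to 7.06 CPM. Col28a1 was at 3.57 to 9.89 CPM in Con and 3.41 to 7.29 CPM in DSS, and Col6a5 at 3.05 to 9.25 and 2.60 to 17.3 CPM. DSS and Con overlapped in all 6. Col9a3 shares 6.07% of its exon length with the antisense gene Tcfl5.

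Of the 15 calls 7 held in all 21 alternatives, which changed the scaling, the low-count filter, the test, the samples fitted or left out 1 library. These were Col4a1, Col4a2, Col5a2, Col6a1, Col6a2, Col15a1 and Col18a1. Without Con 2, 9 members were called, the fewest of any alternative, and 2894 of all 18281 genes then tested, against 4688 of 17658 with it. Without it the calls of Col1a1, Col1a2, Col3a1, Col5a1, Col5a3 and Col6a3 were lost, with adjusted p of at most 0.12 over all alternatives. Col3a1 was the least steady, and lost its call in 10 of 21 alternatives, among them those without DSS 2, DSS 3, UA+DSS 1, DSS+UA 3 or any 1 Con library. Col1a1 and Col5a1 were also lost without Con 1 (highest adjusted p 0.0726 and 0.0572), and Col1a2 without any 1 Con library (highest 0.0924). Col1a1 and Col1a2 were lost without DSS 3, where 12 members and 4284 of 18274 genes were called. Col4a3 was lost without DSS 1 (adjusted p 0.0525), and Col5a3 and Col22a1 in a fit of the DSS and Con groups alone. With the position score as a covariate 17 members were called, the 15 among them, and 5382 of all 17658 genes, against 4688 without it. The log2 fold changes of Col18a1 and Col4a1 then were 3.67 and 2.56.

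The sums of fibroblast and endothelial markers were higher in DSS than in Con, like that of the collagens, while other stromal markers were mixed. The summed level of 8 fibroblast markers was 506 to 707 CPM in Con, 1277 to 1715 CPM in DSS, 388 to 679 CPM in UA+DSS, against 370.2 to 738 CPM in DSS+UA, and 4 of the 8 were raised in DSS. The sum of 6 endothelial markers was 152 to 204 CPM in Con, 251 to 378 CPM in DSS, 126 to 153 CPM in UA+DSS, against 92.9 to 103 CPM in DSS+UA, and 3 of the 6 were raised in DSS. No marker of these lists was without a count in any group. Of the fibroblast markers Dcn alone was at 637 to 1121 CPM in DSS, and Lum, Dpt, Fbln1 and Mfap5 overlapped between DSS and Con. The sum of 5 pericyte markers was 167 to 432 CPM in Con and 298 to 436 CPM in DSS, and 2 of the 5 were raised. Divided by the fibroblast sum, the collagen sum was 3.07, 3.15 and 3.91 in Con and 3.80, 4.04 and 5.99 in DSS, so these ranges overlapped. It was 2.80 to 5.73 in UA+DSS and 4.05 to 4.49 in DSS+UA. Col4a1 divided by the endothelial sum was 0.726 to 1.18 in Con, 2.06 to 3.79 in DSS, 1.18 to 3.05 in UA+DSS and 1.91 to 2.14 in DSS+UA, so both UA groups overlapped DSS in this ratio. Col18a1 divided by the same sum was 0.127 to 0.298 in Con and 1.10 to 1.87 in DSS. In UA+DSS it was 0.388 to 1.27 and in DSS+UA 1.28 to 1.47. Smooth muscle markers, whose sum was 1094 to 3467 CPM in Con and 661 to 1454 CPM in DSS, held no gene called in DSS against Con or in either UA group against DSS. All 6 smooth muscle markers had a negative log2 fold change in DSS against Con (median -0.998). Their sum was 1124 to 2436 CPM in UA+DSS, against 436 to 866 CPM in DSS+UA. Of the 6 epithelial markers 1 was lowered in DSS against Con, and 2 and 1 were raised in UA+DSS and DSS+UA against DSS. The part of cell numbers in the collagen changes was not tested.

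**Figure D3:**
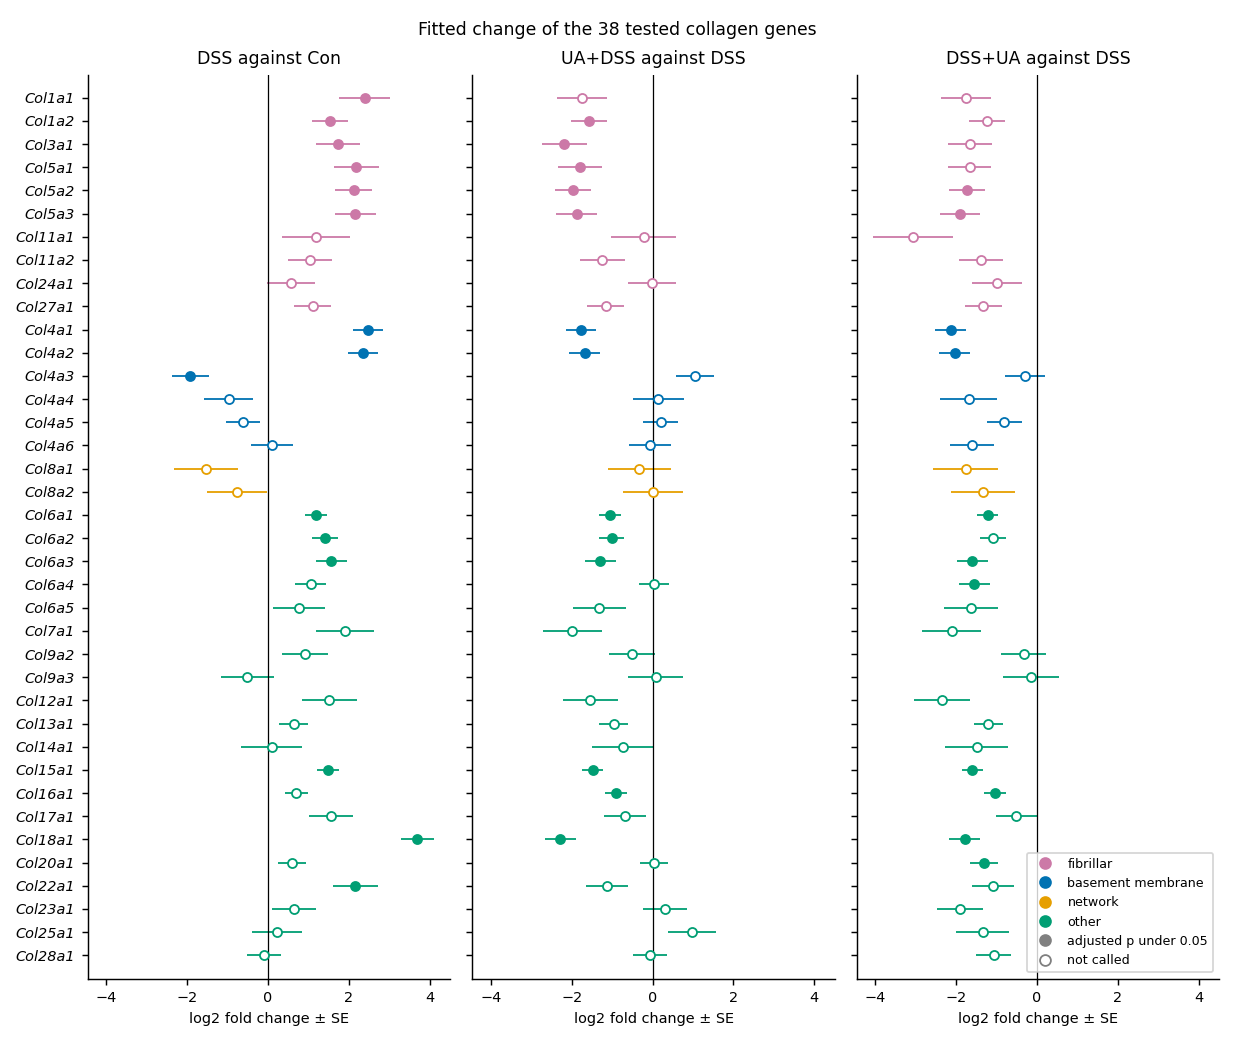
Log2 fold changes ± SE of the 38 tested collagen genes in 3 comparisons, by class, with filled points for adjusted p under 0.05. Col18a1 lies at 3.69 in DSS against Con, and all 38 points lie under 0 in DSS+UA against DSS.

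UA+DSS against DSS asks whether the collagens differed when UA was started before DSS. Of the 38 genes 13 were lowered and none was raised. Over all tested genes 18.7% were called, with 8.21% raised and 10.5% lowered. The lowered genes were Col1a2, Col3a1, the 3 chains of type V, Col4a1, Col4a2, Col6a1, Col6a2, Col6a3, Col15a1, Col16a1 and Col18a1. The median log2 fold change of the 38 was -0.99, against -0.02 over all tested genes. For 16 genes every UA+DSS library was under every DSS library, where this held for 21.7% of all tested genes. This comparison uses the same DSS libraries as DSS against Con.

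Col18a1 was 4.85-fold lower in UA+DSS than in DSS, a log2 fold change of -2.28 ± 0.39 (edgeR adjusted p 0.00972). Its highest UA+DSS library, at 159 CPM, was under the lowest DSS library, at 415 CPM. Col15a1 fell by 1.48 ± 0.26 on the log2 scale (edgeR adjusted p 0.00999), and its UA+DSS libraries overlapped those of Con. Col3a1 had a log2 fold change of -2.18 ± 0.55, Col1a2 of -1.57 ± 0.44 and Col5a2 of -1.97 ± 0.45 (edgeR adjusted p 0.0232, 0.0329 and 0.0172). Col1a1 had -1.75 ± 0.61, with all UA+DSS libraries under all DSS libraries, but its adjusted p of 0.0698 missed the threshold.

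Col4a1 and Col4a2 had log2 fold changes of -1.76 ± 0.37 and -1.68 ± 0.37 (edgeR adjusted p 0.0141 and 0.0158), and their UA+DSS libraries were all under the DSS libraries. The type VI chains fell by 1.05 ± 0.26, 1.02 ± 0.31 and 1.29 ± 0.38 on the log2 scale (edgeR adjusted p 0.022, 0.0442 and 0.0384). Col16a1, a fibril-surface chain that was not called in DSS against Con, was at 41.4, 18.2 and 38 CPM in the Con libraries, 47.7, 51.0 and 60.3 in those of DSS, 29.2, 21.6 and 34.5 in those of UA+DSS and 28.2, 24.9 and 23.8 in those of DSS+UA. Its UA+DSS libraries were all under its DSS libraries, with a log2 fold change of -0.90 ± 0.28 (edgeR adjusted p 0.043). The called Col5a1 and Col5a3 had log2 fold changes of -1.79 ± 0.54 and -1.88 ± 0.50 (edgeR adjusted p 0.0437 and 0.0293), and for Col5a3 the groups overlapped. Col4a3, lower in DSS than in Con, had a log2 fold change of 1.05 ± 0.47 that was not called.

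The count of calls changed when single libraries were left out. Without UA+DSS 2 only Col18a1 was called among the members and 183 of 18260 genes in all, against 3300 of 17658 with it. The other 12 members had adjusted p of up to 0.163 over the alternatives. Without UA+DSS 1, 7 members were called (1936 genes in all), and without DSS 2 or DSS 3, 8 (1816 and 3601 genes in all). A fit of the DSS and UA+DSS groups alone called 7 members, and 2072 of 16738 genes in all. None of the 13 changed direction in an alternative. With the position score as a covariate no member and 3 of all 17658 genes were called, and 12 members had an unadjusted p under 0.05. The log2 fold changes then were -2.21 for Col18a1, -2.14 for Col4a1 and -1.74 for Col3a1, and their adjusted p 0.119, 0.104 and 0.238. The DSS and UA+DSS libraries did not overlap in the score, so treatment and sampled position cannot be told apart here. The same holds for DSS and DSS+UA, whose scores did not overlap either.

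DSS+UA against DSS asks the same for UA started 3 days after DSS. Of the 38 genes 11 were lowered and none was raised, where 7.54% of all tested genes were called, 2.54% raised and 5% lowered. An unadjusted p under 0.05 was found for 27 members and for 29.9% of all tested genes. For 22 genes every DSS+UA library was under every DSS library, where this held for 16.4% of all tested genes. All 38 genes had a negative log2 fold change, and their median was -1.52 against 0.02 over all tested genes. With the library size alone as scaling, the median of all genes in this comparison moved to -0.11, and 12 members and 1143 of all genes were called. The lowered genes were Col4a1, Col4a2, Col5a2, Col5a3, Col6a1, Col6a3, Col6a4, Col15a1, Col16a1, Col18a1 and Col20a1. Type I and III chains were not called, though every DSS+UA library was under every DSS library for Col1a1, Col1a2 and Col3a1.

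Col4a1 and Col4a2 had the largest changes among the called genes, 4.41-fold and 4.11-fold lower, with log2 fold changes of -2.14 ± 0.38 and -2.04 ± 0.38 (edgeR adjusted p 0.0153 and 0.0194). Col18a1 had -1.79 ± 0.38 and Col15a1 -1.60 ± 0.26 (edgeR adjusted p 0.0261 and 0.0134), with no overlap for either. Col6a1, Col6a3, Col5a2, Col5a3 and Col16a1 had log2 fold changes of -1.22 ± 0.26, -1.60 ± 0.38, -1.73 ± 0.44, -1.91 ± 0.50 and -1.05 ± 0.28 (edgeR adjusted p 0.0277 to 0.0465). Col5a3 was the only called gene whose groups overlapped. For Col1a1, Col1a2, Col3a1 and Col5a1 the values were -1.76 ± 0.61, -1.24 ± 0.44, -1.66 ± 0.55 and -1.67 ± 0.54, with adjusted p of 0.0921, 0.092, 0.0762 and 0.0759.

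Col6a4 and Col20a1 were lowered here but not in UA+DSS against DSS. Col6a4 was at 5.59, 12.7 and 17.9 CPM in the Con libraries, 18.7, 25.0 and 31.3 in those of DSS, 34.5, 24 and 18.6 in those of UA+DSS and 7.32, 9.59 and 8.65 in those of DSS+UA. All DSS+UA libraries were under all DSS and all UA+DSS libraries, and the log2 fold change against DSS was -1.55 ± 0.38 (edgeR adjusted p 0.0389). Col20a1, a fibril-surface chain, was at 2.84, 3.55 and 3.37 CPM in the Con libraries, 3.90, 3.11 and 7.77 in those of DSS, 4.75, 4.75 and 5.69 in those of UA+DSS and 2.42, 1.79 and 1.72 in those of DSS+UA, again lowest in DSS+UA, with a log2 fold change of -1.31 ± 0.35 (edgeR adjusted p 0.0471). It shares 79 bases with a second transcript on its strand that had 1256 counts against 835 for Col20a1, so its level is uncertain. Col12a1 and Col11a1 were at most 37.8 and 0.263 CPM in DSS+UA and at least 48.9 and 0.673 CPM in DSS, with adjusted p of 0.0602 and 0.0737.

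The count of calls depended on single libraries and on the tool. No member was called without DSS+UA 3, 1 without DSS+UA 2 (Col15a1) and 3 without DSS+UA 1. Over all genes these leave-outs gave 25, 142 and 957 calls, against 1331 with every library. The count of members was 5 with the replicate number as a block, and 5 to 7 without Con 2, DSS 2, DSS 3 or any 1 UA+DSS library. It was 7 with limma-voom, without a filter or in a fit of the DSS and DSS+UA groups alone. With at least 10 counts in every library it was 15 of 28, and with DESeq2 23. Over all genes the block gave 552 calls, limma-voom 1152, no filter 882 of 31891 and the groups alone 430 of 16420. At least 10 counts gave 1698 of 13982, and DESeq2 3107. The leave-outs gave 896, 397 and 1438 without Con 2, DSS 2 and DSS 3, and 580 to 679 without 1 UA+DSS library. With the position score as a covariate 199 of all genes were called and of the members only Col15a1 (log2 fold change -1.5, edgeR adjusted p 0.0461), and 22 members had an unadjusted p under 0.05. Col4a1 then had -1.93 (adjusted p 0.0563) and Col18a1 -1.83 (adjusted p 0.0665), and Col6a4 moved from -1.55 ± 0.38 to -0.99. The 6 endothelial markers were all lowered in this comparison, 4 of the 8 fibroblast markers were, and 3 of the 5 pericyte markers were. The same counts for UA+DSS against DSS were 5, 4 and 1. Their part in the collagen changes was not tested.

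UA+DSS against Con asks how the collagens compared with undiseased colon under early UA. No collagen gene was called by edgeR, where 0.00566% of all tested genes were called. By the same test 3 members had an unadjusted p under 0.05, limma-voom called 0 and DESeq2 called 1, Col18a1. Over all 17658 genes limma-voom called 0 and DESeq2 376. Every UA+DSS library was above every Con library for 2 members and for 9.62% of all tested genes, and under them for 1 member and 11% of all. The unadjusted p was under 0.05 for 12.1% of all tested genes. The median log2 fold change of the 38 was 0.08, against -0.01 over all tested genes. Col18a1 had 1.41 ± 0.38 with an edgeR adjusted p of 0.241 (0.0221 to 0.686 over the alternatives). UA+DSS 2 lay within the Con range there. Col8a1 had -1.87 ± 0.80 and Col6a4 1.09 ± 0.38 (adjusted p 0.398 and 0.329). The values of Col1a1 and Col3a1 were 0.64 ± 0.60 and -0.46 ± 0.53. A difference of the size of Col18a1's was thus not called at this number of libraries, and the levels are not shown to be equal. With the position score as a covariate no member and none of all 17658 genes was called. By that fit 3 members had an edgeR unadjusted p under 0.05. The scores of UA+DSS and Con did not overlap, so treatment and sampled position cannot be told apart here either.

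DSS+UA against Con gave 5 calls, where 18.1% of all tested genes were called. Col18a1 was the one raised gene, 3.72-fold above Con with a log2 fold change of 1.90 ± 0.38 (edgeR adjusted p 0.0103, at most 0.0393 over the alternatives). Against 9.13% of all genes raised and 8.95% lowered, 1 member was raised and 4 were lowered. The lowered genes were Col4a3, Col4a4, Col4a5 and Col8a1, with log2 fold changes of -2.22 ± 0.48, -2.67 ± 0.70, -1.43 ± 0.44 and -3.30 ± 0.85 (edgeR adjusted p 0.0127, 0.0251, 0.0433 and 0.026). All DSS+UA libraries were under all Con libraries for these 4, and also for Col4a6, Col8a2 and Col20a1, which were not called. Such separation in either direction was found for 9 members, and for 19.8% (higher) and 19.2% (lower) of all tested genes. An unadjusted p under 0.05 was found for 9 members and for 36% of all. No fibrillar chain was called. Col4a4 rests on levels as low as 0.0554 CPM, about 1 count in a library.

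Without DSS+UA 3 only Col18a1 kept its call here, and without Con 2 or Con 3 the count was 2 and without DSS+UA 1 it was 3. Over all genes 1062 calls were left without DSS+UA 3, 1886 without Con 2, 1563 without Con 3 and 1809 without DSS+UA 1, against 3193 with every library. With the position score as a covariate 2170 of all genes were called and of the members only Col4a3, at -2.22 (edgeR adjusted p 0.032). Col18a1 then had 1.84 (adjusted p 0.057), close to its value without the score, while Col8a1 went to -1.23 (adjusted p 0.348). Con 1, with a score near those of DSS+UA, had 8.95 CPM of Col8a1 against 80.9 and 96.3 CPM in the other Con libraries. The UA+DSS libraries, with the lowest scores, had 9.81 to 29.1 CPM. Those mice also had DSS and UA, and the part of position in the level of Col8a1 was not tested. Of the 6 smooth muscle markers 3 were lowered in DSS+UA against Con, and of the 6 endothelial markers 4. Their part in these changes was not tested.

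UA+DSS against DSS+UA compares both times of UA directly, and so tests whether their differences from DSS were unequal. Raised in UA+DSS were 4 members and lowered none, where 16.8% of all tested genes were called with 7.54% raised and 9.23% lowered. Besides Col6a4 and Col20a1 these were the transmembrane chains Col23a1 and Col25a1. Col23a1 was at 2.64, 5.66 and 13.1 CPM in the Con libraries, 14.2, 5.91 and 13.1 in those of DSS, 12.6, 18.3 and 10.3 in those of UA+DSS and 3.0, 4.14 and 1.72 in those of DSS+UA, and Col25a1, better known from neurons, at 0.207, 0.721 and 1.39 CPM in the Con libraries, 1.01, 1.00 and 0.687 in those of DSS, 1.35, 1.87 and 2.13 in those of UA+DSS and 0.632, 0.186 and 0.222 in those of DSS+UA. For all 4 genes every UA+DSS library was above every DSS+UA library. The log2 fold changes were 1.59 ± 0.38 (Col6a4), 1.35 ± 0.35 (Col20a1), 2.22 ± 0.57 (Col23a1) and 2.33 ± 0.65 (Col25a1), with edgeR adjusted p of 0.0204, 0.0269, 0.0257 and 0.0331. Each lost its call in 4 to 6 alternatives, and none was called without UA+DSS 1, UA+DSS 2 or DSS+UA 3, which left 1442, 560 and 931 calls over all genes, against 2961 with every library. In this comparison 3 of 6 smooth muscle markers, 2 of 5 pericyte markers and 1 of 6 endothelial markers were raised as well, and their part was not tested. Of the 14 genes raised in DSS against Con none was called here, and Col18a1, Col4a1 and Col1a1 had -0.48 ± 0.37, 0.38 ± 0.36 and 0.01 ± 0.60.

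The levels of the 4 genes were set beside the position score. Across the 12 libraries the correlation of log2 CPM with the score was -0.71 for Col6a4, -0.68 for Col20a1, -0.75 for Col23a1 and -0.84 for Col25a1, a description that mixes groups and position. For Col18a1, Col4a1 and Col1a1 it was 0.28, 0.01 and 0.22. With the score as a covariate none of all 17658 genes was called, and none of the 38 members had an unadjusted p under 0.05. The log2 fold changes of the 4 went to -0.13, 0.79, 0.35 and 0.29. In Con 1, the Con library with a high score, all 4 were lower than in both other Con libraries. Within DSS, DSS 1 had the highest score and the highest level of Col23a1 and Col25a1, for Col25a1 by 1.01 against 1.00 CPM in DSS 2. Its level of Col20a1 was also higher than in DSS 2. Col6a4 went the other way, lowest in DSS 1 at 18.7 CPM and highest in DSS 3, with the lowest score, at 31.3 CPM. The scores of UA+DSS and DSS+UA did not overlap, so the time of UA and the sampled position cannot be told apart. The part of position was not tested.

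**Figure D4:**
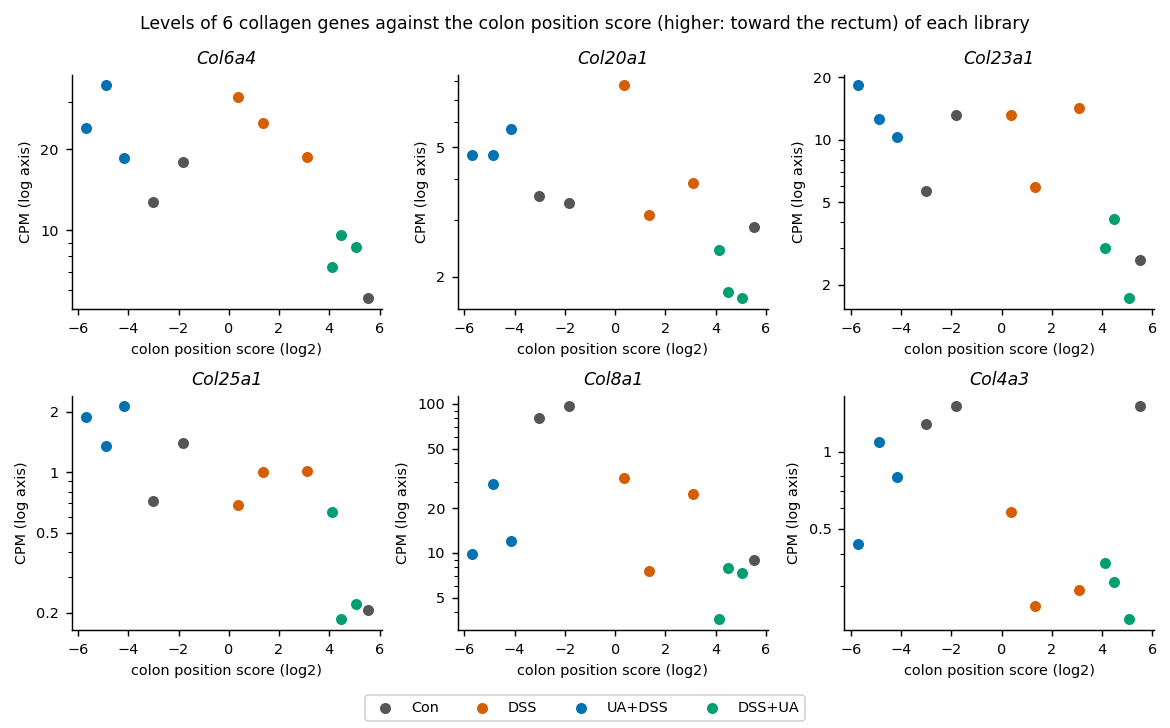
CPM on a log axis of 6 collagen genes against the colon position score of each library, coloured by group. Col6a4, Col23a1 and Col25a1 are low in the DSS+UA libraries and in Con 1, all with scores over 4, whereas Col4a3 is as high in Con 1 (1.5 CPM) as in Con 3.

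Enzymes and chaperones modify and fold collagen chains in the endoplasmic reticulum. The list of these genes also held Mia3, Sec23a, Sec24d, Tmem38b and Creb3l1, which are neither enzymes nor chaperones of this kind. Of the 24 genes of the list, 13 were raised and 1, Mia3, was lowered in DSS against Con. Over all tested genes 13.9% were raised and 12.6% lowered. The median log2 fold change was 0.66. When UA+DSS was compared with DSS 9 were lowered (median -0.70), against 10.5% of all tested genes, and 7 in DSS+UA against DSS (median -0.83), against 5% of all. Plod1, which hydroxylates lysine, was at 19.4, 22.8 and 22.8 CPM in the Con libraries and 44, 44 and 49.6 CPM in the DSS libraries, in rising order, and changed by 1.08 ± 0.17 on the log2 scale (edgeR adjusted p 0.003). P3h1 and Crtap, partners in prolyl 3-hydroxylation, changed by 1.61 ± 0.27 and 0.89 ± 0.16 (edgeR adjusted p 0.00356 and 0.00382). In UA+DSS against DSS the smallest p were those of P3h1 (-1.56 ± 0.27), the foldase Fkbp10 (-1.76 ± 0.34) and Crtap (-0.78 ± 0.16). In DSS+UA against DSS they were those of Plod1 (-1.04 ± 0.17), Plod2 (-1.81 ± 0.35) and P3h1 (-1.36 ± 0.27), all on the log2 scale with edgeR adjusted p of 0.00999 to 0.023 over these 6 values.

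Of 14 tested genes for the trimming and cross-linking of secreted collagen, 11 were raised in DSS against Con and none was lowered, beside 13.9% and 12.6% of all tested genes, with a median of 1.645. In the comparisons of UA+DSS and DSS+UA with DSS 10 and 8 were lowered, beside 10.5% and 5% of all tested genes, with medians of -1.39 and -1.43. Lox, the lysyl oxidase that starts cross-links, was at 11.3, 12.4 and 12.6 CPM in Con, 33.0, 109 and 145 CPM in DSS, 18.8, 19.3 and 34.1 CPM in UA+DSS, against 8.69, 12.2 and 18.5 CPM in DSS+UA, in rising order. The lowest DSS library, at 33.0 CPM, was under the highest UA+DSS library, at 34.1 CPM, and above all others. Its log2 fold changes were 2.98 ± 0.49 in DSS against Con and -2.86 ± 0.49 in DSS+UA against DSS (edgeR adjusted p 0.00347 and 0.0153). The transglutaminase Tgm2 and the procollagen protease Adamts14 rose by 2.46 ± 0.38 and 2.08 ± 0.36 on the log2 scale in DSS (edgeR adjusted p 0.00282 and 0.00392). In UA+DSS against DSS the smallest p were those of Pcolce2 (-1.61 ± 0.31), Loxl1 (-1.88 ± 0.41) and Loxl2 (-2.00 ± 0.44), and in DSS+UA against DSS those of the protease Bmp1 (-1.76 ± 0.30), Lox and the protease Tll1 (-2.23 ± 0.40).

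Collagen receptors were more mixed. Of 10 tested, 4 were raised and none lowered in DSS against Con, beside 13.9% and 12.6% of all tested genes, with a median of 0.52. Antxr1, Mrc2 and Ddr2, which bind collagens on stromal cells, changed by 1.22 ± 0.21, 1.96 ± 0.43 and 1.30 ± 0.30 on the log2 scale (edgeR adjusted p 0.00359, 0.00888 and 0.0102). These 3 were lowered in UA+DSS against DSS (-0.96 ± 0.21, -1.39 ± 0.42 and -1.0 ± 0.29) and the epithelial receptor Ddr1, named after its value was seen, was raised (0.77 ± 0.23, edgeR adjusted p 0.0429). In DSS+UA against DSS Antxr1, Ddr2 and the integrin chain Itga1 were lowered (-1.45 ± 0.21, -1.55 ± 0.30 and -1.59 ± 0.32). With the position score as a covariate the calls in DSS against Con of the 9 genes named for it from the 3 lists held. Of all 17658 genes 5382 were called there, against 4688 without the score. In UA+DSS against DSS all 9 named lost their calls, with edgeR adjusted p of 0.104 to 0.237. Only 3 of all 17658 genes were called there, against 3300 without the score. Values with the score are not given for the genes named in DSS+UA against DSS. In that comparison 199 of all genes were called with the score, against 1331 without it.

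**Figure D5:**
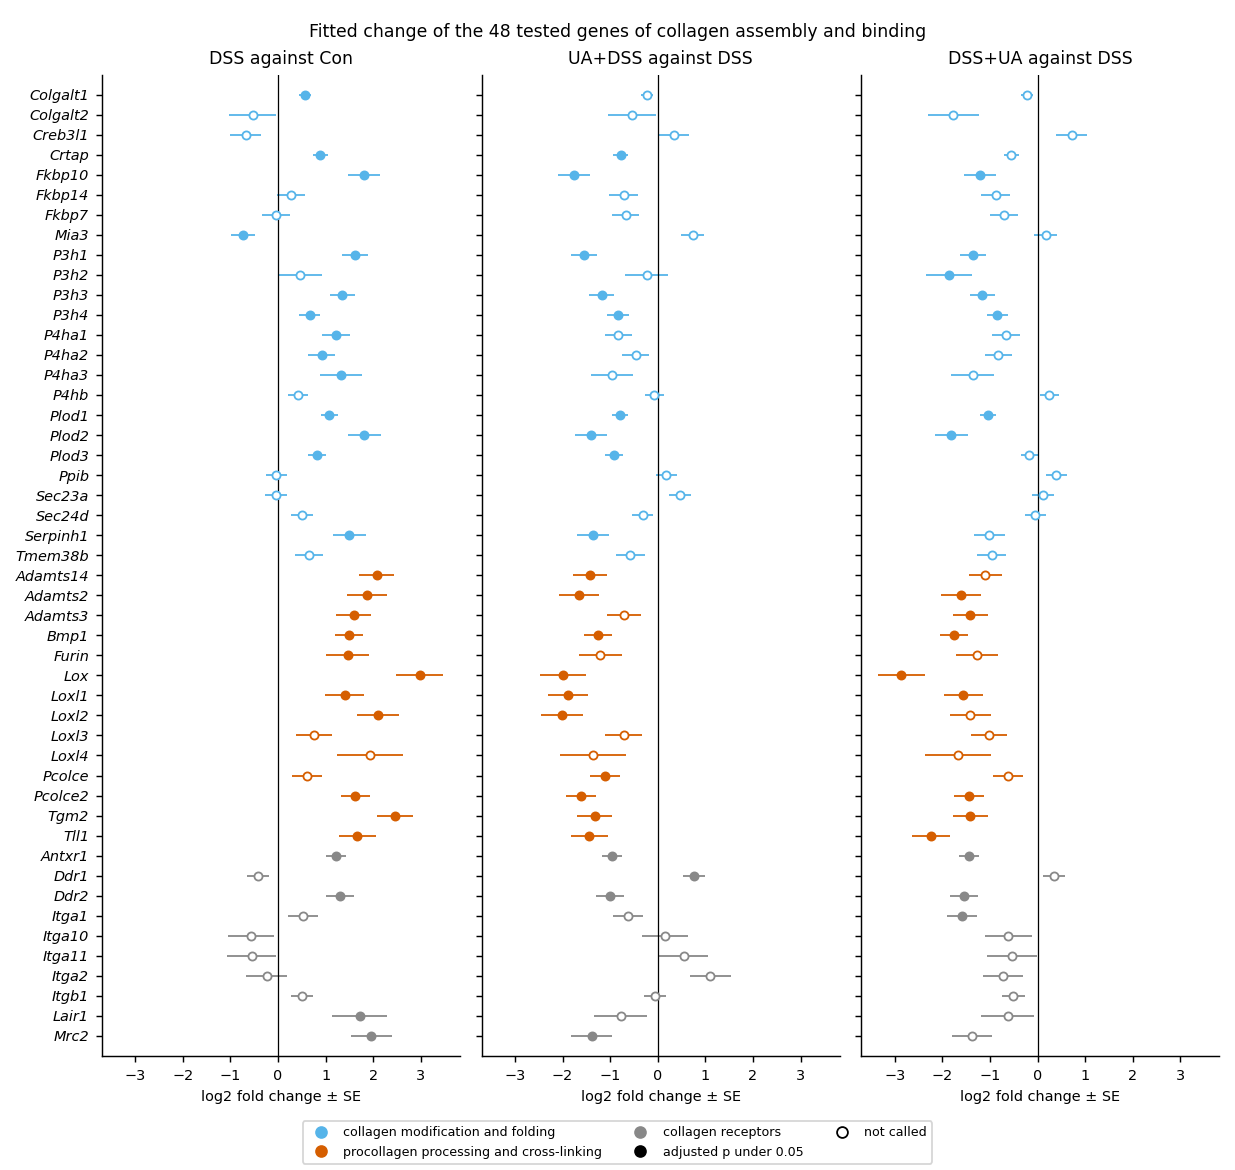
Log2 fold changes ± SE of 48 tested genes for the modification, processing and binding of collagen in 3 comparisons, coloured by list, with filled points for adjusted p under 0.05. In DSS against Con 28 points are filled on the raised side and 1, Mia3, on the lowered side.

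By the pattern over the 12 libraries, the genes outside the collagens most like Col1a1 were Fstl1, Ptk7 and Sparc (Pearson r of log2 CPM 0.96 for each), and among the collagens Col5a1, Col5a2 and Col1a2 (0.98, 0.98 and 0.96). The same was done for Col4a1 and Col18a1 after their values were seen. For Col4a1 they were Serpine2, Lamc1 and Adam12 (0.98, 0.97 and 0.97), after its neighbour Col4a2 at 0.998. For Col18a1 they were Lgi2, Cemip and Sh3pxd2b (0.99, 0.98 and 0.98), all above its likeness to any collagen, of which Col4a2 was first at 0.90. The 12 libraries share the group differences, and these values are descriptions over them.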

How the data were processed

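Total RNA of 12 mouse colons was sequenced, 3 in each group. The deposited values are raw counts per Ensembl gene, which the authors made from reads checked with FastQC and mapped to GRCm38. The methods of the study credit the gene counts to HISAT2, an aligner, and the submitters' processing notes name HISAT2 and Cuffdiff. Versions, the annotation release and the use of strand are not named in the sources that were read. The labels name Trizol for RNA extraction where the methods name an RNeasy kit. No count column was left without a sample.

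Gene names came from GENCODE M21, in which 54409 of the 54532 IDs were found. Genes were filtered with filterByExpr, which left 17658 genes and 99.81% of the counts. One edgeR quasi-likelihood model was fitted to the 4 groups with TMM scaling, and each comparison was a contrast of it with Benjamini-Hochberg adjustment at 0.05 (R 4.3.3, edgeR 4.0.16). Log2 CPM used a prior count of 2. The biological coefficient of variation was 0.352. Shares and floors cover counting error only. The edgeR fit by group was tested on simulated data for DSS against Con, with 200 genes changed. The other comparisons and the fits of the alternatives were not tested in this way. No pair of libraries of a group differed by less than sampling noise.

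The alternatives were other scaling factors, other filters, DESeq2 1.42.0, limma 3.58.1 with voom, fits of the groups compared alone, the replicate number as a block, leaving out each library, and the position score as a covariate, which is counted apart from the other 21. For genes that some filters remove there were 19 or 20. The score is the mean log2 CPM of Hox genes active toward the rectum minus that of Hox genes active toward the caecum, an idea of an earlier analysis after its data were seen. Replicate numbers were given in every group, but only 5 of 18 same-numbered pairs of libraries had a correlation of deviations over 0.1 (-0.22 to 0.19), so the numbers were not taken to pair the mice.

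The collagen genes and all lists were chosen with earlier results of these data known. Values in every library are given for types I, III, IV (alpha 1 and 2), V, VI (alpha 1 to 3), XII, XIV, XV, XVII and XVIII and for any other member called in a comparison. From the lists of modifying, processing and receptor genes the 3 smallest p of a comparison name the genes. Promoter windows and motifs were read from RefSeq (GRCm38.p6). Col1a1, Col5a2, Col4a3, Col12a1, Col14a1, Col2a1, Col22a1, Col26a1 and Col9a3 had no window in that table.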

Additional observations from a re-analysis of the deposited data

Results flagged for a closer look

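The differences of both UA groups from DSS were called unequal for 4 collagen genes, tested directly as UA+DSS against DSS+UA with edgeR. These were 4 of 38 members, where 16.8% of all tested genes were called and 7.54% were raised. The log2 fold change was 1.59 for Col6a4, 1.35 for Col20a1, 2.22 for Col23a1 and 2.33 for Col25a1, each with 3 of 3 UA+DSS libraries above all DSS+UA libraries. The edgeR adjusted p were 0.0204, 0.0269, 0.0257 and 0.0331. With the colon position score as a covariate the values were -0.13, 0.79, 0.35 and 0.29, and no adjusted p was under 0.626. With that covariate none of all 17658 genes was called. None of the 4 kept its call without UA+DSS 1, UA+DSS 2 or DSS+UA 3. The scores of UA+DSS and DSS+UA did not overlap, so the time of UA and the sampled position cannot be told apart here.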

How the results depend on the processing

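Counts of called collagen genes are given here. In DSS against Con (15 called) no change of scaling, filter, test or fitted groups moved the count by more than 1.5 times. For UA+DSS against DSS (13) the count was 7 in a fit of both groups alone (2072 of 16738 genes in all) and 0 with the position score. In DSS+UA against DSS (11) it was 7 without a filter (882 of 31891 genes in all) and 23 with DESeq2 (3107 of 17658). It was 7 with limma-voom (1152 of 17658), 7 in a fit of both groups alone (430 of 16420) and 1 with the score. For UA+DSS against Con (0) DESeq2 called 1, and 376 of 17658 genes in all. In DSS+UA against Con (5) it was 3 without a filter (2242 of 31891 genes in all) and 3 with at least 10 counts in each library (2731 of 13982). It was 8 with DESeq2 (4661 of 17658), 3 with both groups alone (2035 of 16499) and 1 with the score. For UA+DSS against DSS+UA (4) it was 0 with the score, where Col6a4 turned from 1.59 to -0.13 (edgeR adjusted p 0.942). Of all 17658 genes, the fit with the score called 3 in UA+DSS against DSS (3300 without it), 199 in DSS+UA against DSS (1331), 2170 in DSS+UA against Con (3193) and 0 in UA+DSS against DSS+UA (2961). The causes were not tested.

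With the replicate number as a block, the count in DSS+UA against DSS was 5 (552 of 17658 genes in all), and no other count moved by more than 1.5 times. Same-numbered libraries deviated together in 5 of 18 pairs, and 5 of 12 libraries correlated best with their own number.

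Leaving out 1 library at a time gave 9 to 16 calls in DSS against Con, 1 to 13 in UA+DSS against DSS, 0 to 12 in DSS+UA against DSS, 0 to 0 in UA+DSS against Con, 1 to 6 in DSS+UA against Con and 0 to 5 in UA+DSS against DSS+UA. The fewest calls came without Con 2 in DSS against Con, without UA+DSS 2 in UA+DSS against DSS, and without DSS+UA 3 in both comparisons of DSS+UA with DSS and Con. In the last comparison they came without UA+DSS 1, UA+DSS 2 or DSS+UA 3. Over the genes called, 806 values under alternatives kept their call, 243 lost it and 1 reversed. Genes under the filter, among them 6 collagens, could not be compared at this depth.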
